A study of Homo sapiens with 16 samples.

Results

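The genes described are 8 metallothionein loci (MT2A, MT1E, MT1X, MT1F, MT1L, MT1A, MT1G and MT3) and MTF1, the transcription factor that regulates them, which are 9 of the 25370 genes in the count table. HMC3, a line of human microglial cells, was treated for 24 h and sequenced as 2 RNA libraries for each of 8 treatments. Besides vehicle and estradiol (E2, 0.1 nM), the cells received 1 of 3 drugs at 400 nM, which were ketamine, (2S,6S)-HNK and (2R,6R)-HNK. Each drug was given alone or together with 0.1 nM E2. HNK stands for hydroxynorketamine, a metabolite of ketamine, and the (2R,6R) and (2S,6S) forms are enantiomers, that is, mirror images of each other. The members were selected from measured values. MT2A, MT1E, MT1X and MT1F were chosen by the study from its comparisons of ketamine and both HNK enantiomers with vehicle, and the other members were chosen with results of these data known. Differences from vehicle are therefore given as a description without a test. The comparisons of drugs without E2 reuse the drug libraries from which those 4 genes were chosen, so passing there is in part due to the choice. The comparisons among the 4 conditions with E2 contrast none of those libraries, but the fit drew its filter, scaling and spread from all 16. The set as a whole was also chosen with results of all conditions known. The calls of members are therefore a description, set beside the share of all genes that passed, and no p is printed for a member.

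Metallothioneins are small proteins rich in cysteine that bind zinc and copper ions, buffer the free zinc of the cell and protect it from cadmium and other heavy metals. MTF1 is a zinc-sensing factor that, when zinc rises, enters the nucleus and binds metal response elements in the promoters of metallothionein genes and of SLC30A1, which encodes a zinc exporter of the plasma membrane. Glucocorticoids and oxidative stress are also known to induce metallothioneins, and in brain they are most abundant in glia.

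On GRCh37, whose chromosome sequences are those of the authors' hg19 build, MT2A lies at chr16:56642496-56643409, MT1E at chr16:56659387-56661024, MT1F at chr16:56691643-56694610 and MT1X at chr16:56716382-56718108, all on the plus strand of the metallothionein cluster. MT1L (chr16:56651475-56652592), MT3 (chr16:56622986-56625000), MT1A (chr16:56672578-56673999) and MT1G (chr16:56700642-56701977) belong to the same cluster, and MTF1 lies at chr1:38275246-38325264 on the minus strand. Promoter sequences were found for 3 of the 9 members, namely MT2A, MT1X and MTF1. The 250 bases before the RefSeq transcription start are shown for these 3. Capitals mark each match to the core of the metal response element, searched as TGCACNC and TGCGCNC on both strands. The coordinates are of GRCh38.p14, plus strand for MT2A (chr16:56608334-56608583) and MT1X (chr16:56682220-56682469) and minus strand for MTF1 (chr1:37859593-37859842).
MT2A: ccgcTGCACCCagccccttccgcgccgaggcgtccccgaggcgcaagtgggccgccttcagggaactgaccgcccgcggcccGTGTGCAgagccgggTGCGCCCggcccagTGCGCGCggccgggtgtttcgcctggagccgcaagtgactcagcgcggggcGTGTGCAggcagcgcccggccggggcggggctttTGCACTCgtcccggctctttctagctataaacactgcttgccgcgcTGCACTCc
MT1X: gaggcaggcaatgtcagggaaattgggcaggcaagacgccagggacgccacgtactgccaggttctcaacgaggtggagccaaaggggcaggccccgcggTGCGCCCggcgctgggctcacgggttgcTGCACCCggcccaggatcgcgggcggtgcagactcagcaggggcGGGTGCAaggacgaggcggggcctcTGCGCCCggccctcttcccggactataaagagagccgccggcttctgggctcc
MTF1: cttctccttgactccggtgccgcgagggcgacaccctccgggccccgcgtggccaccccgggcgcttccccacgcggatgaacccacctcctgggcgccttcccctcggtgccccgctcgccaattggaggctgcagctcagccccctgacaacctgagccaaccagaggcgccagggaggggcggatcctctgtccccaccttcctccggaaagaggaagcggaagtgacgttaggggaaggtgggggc
The MT2A window held 7 matches and the MT1X window 4, while the MTF1 window held 0. Of 35116 promoter windows of the same length, 24.8% held at least 1 match, 0.37% at least 4 and 0.0313% at least 7. The window of SLC30A1 held 1 match. A match describes letters in this window and is not a measured binding site. Whether matches bear on the levels was not tested.

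**Figure D1:**
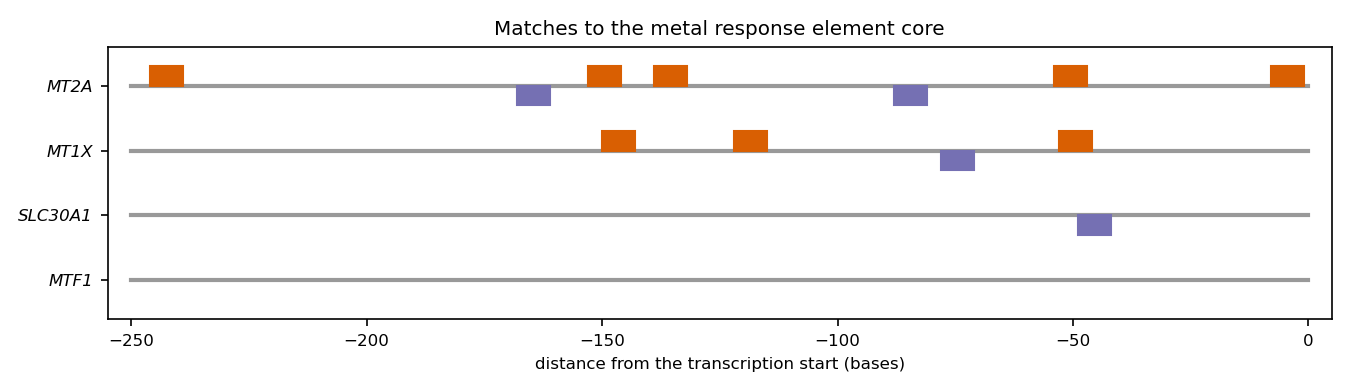
Positions of matches to the metal response element core in the 250 bases before the transcription start of MT2A, MT1X, SLC30A1 and MTF1; the horizontal axis is the distance from the start in bases, boxes above a line are matches on the strand of the gene and boxes below it matches on the other strand. MT2A has 7 matches, MT1X 4, SLC30A1 1 and MTF1 0.

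Each library held between 55300614 and 81646165 counts. Levels are given as counts per 1000000 counts of the library (CPM) after TMM scaling, and levels of members are compared with one another per kilobase of the main transcript. The 9 members all passed the filter on low counts, which kept 16004 genes. Metallothionein transcripts are similar in part of their sequence, and the authors counted uniquely mapped read pairs. Pairs that fit several members were therefore not counted, and the level of each single member is uncertain. Exons of MT1X share 321 bases with a long noncoding RNA on the same strand, and those of MT1L share 186 bases with another, so their counts may include both. The strand setting of the counting is not stated in the sources used here.

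The cell type label was checked against 13 markers of microglia and macrophages, of which 3 were expressed enough to be tested. These were CD68 (17.4 to 23.4 CPM over the 16 libraries), CSF1R and TREM2, the last 2 at a median of 0.738 and 0.733 CPM. The defining markers AIF1, PTPRC, ITGAM, CX3CR1, P2RY12, TMEM119, SPI1, TYROBP, C1QA and C1QB had at most 7 counts in any library, and C1QA had 0 in each. Of 8 markers of fibroblasts and mural cells, 5 were tested, and COL1A1 had the most counts, at 3589 to 5344 CPM. COL1A2, PDGFRB and THY1 were also expressed, while ACTA2 was at a median of 2.07 CPM. The fibroblast markers COL3A1, DCN and LUM had at most 6, 12 and 4 counts in any library, so this list was split. The cells are therefore called HMC3 cells here. Some markers differed between the conditions in which MT2A was highest and lowest. TUBB3, which accounts for most of the counts of 5 neuronal markers, was at 139 and 139.6 CPM with E2+ketamine, where MT2A was highest, and at 76.5 and 71.7 CPM with E2+(2S,6S)-HNK, where MT2A was lowest. E2 and vehicle, which overlapped for MT2A, differed in TUBB3 (129 and 130.2 CPM against 106 and 105 CPM) and in the sum of the fibroblast and mural markers (6223 and 6267 CPM against 4751 and 4758 CPM). SNAP25, another neuronal marker, moved opposite to TUBB3 with E2+ketamine against E2+(2S,6S)-HNK (log2 fold change -0.99 (SE 0.213)). The fibroblast and mural markers were also lowest with E2+(2S,6S)-HNK, at a sum of 4543 and 4262 CPM, and all 5 tested rose with E2+ketamine against E2+(2S,6S)-HNK. So did all 3 tested microglial markers, with log2 fold changes of 0.20 (SE 0.0651) for CD68, 0.84 (SE 0.333) for CSF1R and 0.94 (SE 0.339) for TREM2. Of all genes, 31.7% rose and 35% fell in that comparison. In bulk RNA, fewer cells of a kind and less RNA per cell cannot be told apart.

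MT2A, the metallothionein with the most counts in these cells, was measured at 307 and 293 CPM in the vehicle libraries and at 296 and 309.8 CPM with E2. Its level was 273 and 278 CPM with ketamine, 479 and 482 CPM with (2R,6R)-HNK and 199 and 202 CPM with (2S,6S)-HNK. When E2 was also present, the level was 505 and 540.2 CPM with ketamine, 344 and 353 CPM with (2R,6R)-HNK and 165 and 161 CPM with (2S,6S)-HNK. The libraries given E2+ketamine were highest, followed by (2R,6R)-HNK, E2+(2R,6R)-HNK, E2, vehicle, ketamine, (2S,6S)-HNK and E2+(2S,6S)-HNK, and of these neighbours only E2 and vehicle overlapped. The mean was 523 ± 25.0 CPM (SD, n = 2) in the highest condition and 163 ± 2.65 CPM (SD, n = 2) in the lowest.

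MT1E, a metal-inducible isoform, was measured at 77.0 and 73.6 CPM with vehicle, 59.4 and 57.6 CPM with E2 and 50.6 and 53.6 CPM with ketamine. It was at 115 and 120.2 CPM with (2R,6R)-HNK and at 21.8 and 21.5 CPM with (2S,6S)-HNK. With E2 added, ketamine gave 128 and 125 CPM, (2R,6R)-HNK 49.4 and 50.8 CPM and (2S,6S)-HNK 19.1 and 17.8 CPM. The E2+ketamine libraries were again highest and the (2R,6R)-HNK libraries next, then vehicle, E2, ketamine, E2+(2R,6R)-HNK, (2S,6S)-HNK and E2+(2S,6S)-HNK. Of these neighbours, only ketamine and E2+(2R,6R)-HNK overlapped. The highest library stood 7.22-fold above the lowest, against 3.36-fold for MT2A.

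MT1X, another metal-inducible isoform, was measured at 7.18 and 7.08 CPM with vehicle, 6.36 and 8.11 CPM with E2 and 5.75 and 5.08 CPM with ketamine. It was at 12.9 and 14.1 CPM with (2R,6R)-HNK and 4.29 and 3.99 CPM with (2S,6S)-HNK. In combination with E2 it was at 14.1 and 12.98 CPM with ketamine, 8.81 and 8.73 CPM with (2R,6R)-HNK and 3.29 and 3.31 CPM with (2S,6S)-HNK. The libraries of E2+ketamine and of (2R,6R)-HNK overlapped at the top, the 2 E2 libraries enclosed those of vehicle, and both conditions with (2S,6S)-HNK were lowest without overlap.

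MT1F was measured at 4.89 and 4.98 CPM with vehicle, 4.20 and 4.15 CPM with E2 and 3.96 and 3.18 CPM with ketamine. Its level was 7.83 and 9.04 CPM with (2R,6R)-HNK and 2.30 and 2.43 CPM with (2S,6S)-HNK. Together with E2, the values were 8.60 and 8.36 CPM for ketamine, 5.003 and 5.05 CPM for (2R,6R)-HNK and 2.44 and 2.33 CPM for (2S,6S)-HNK. Here too (2R,6R)-HNK and E2+ketamine overlapped at the top, and (2S,6S)-HNK and E2+(2S,6S)-HNK overlapped at the bottom. Per kilobase of transcript, the vehicle means were 748 CPM for MT2A, 101 CPM for MT1E, 17.6 CPM for MT1X, 11.6 CPM for MT1F and 3.53 CPM for MTF1. MT1L is left out of this comparison because its 186 annotated exon bases all overlap another transcript.

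**Figure D2:**
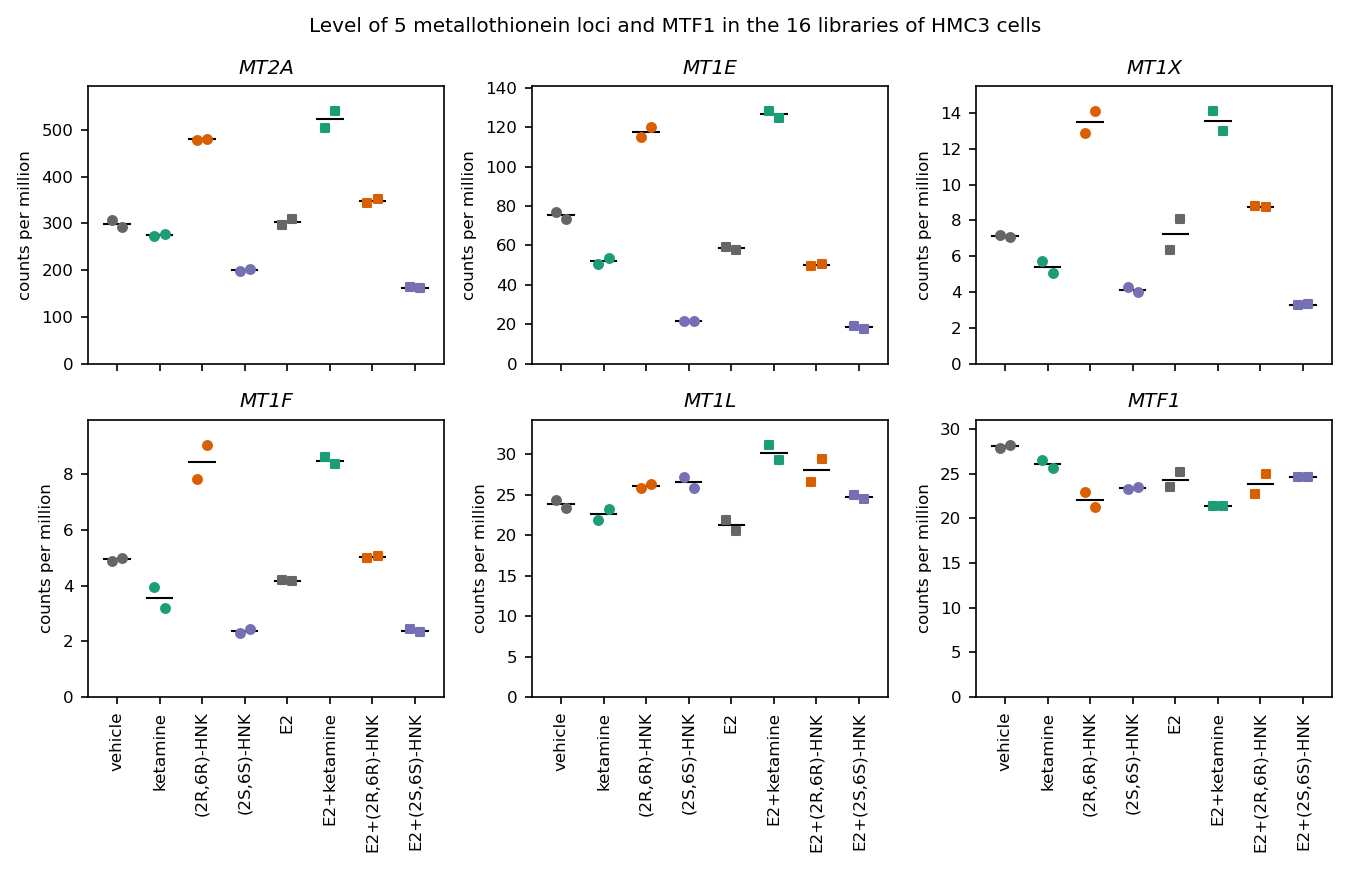
Level of MT2A, MT1E, MT1X, MT1F, MT1L and MTF1 in CPM (vertical axes, each starting at 0) in the 16 libraries by condition; circles are libraries without E2, squares libraries with E2, and lines the means of 2 libraries. For MT2A, MT1E, MT1X and MT1F the (2R,6R)-HNK and E2+ketamine libraries are highest and the conditions with (2S,6S)-HNK lowest, while MT1L spans 20.6 to 31.1 and MTF1 21.2 to 28.2 CPM.

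Relative to vehicle, and as a description only, the log2 fold change of MT2A was -0.12 (SE 0.0279) with ketamine, 0.68 (SE 0.0278) with (2R,6R)-HNK and -0.58 (SE 0.0286) with (2S,6S)-HNK. That of MT1E was -0.53 (SE 0.0405), 0.64 (SE 0.0393) and -1.80 (SE 0.0464) in the same order. The enantiomers thus lay on opposite sides of vehicle for MT2A and MT1E, as they did for MT1X (0.92 for (2R,6R)-HNK, -0.79 for the other) and MT1F (0.77 and -1.06). E2 alone was at 0.01 (SE 0.0281) for MT2A and -0.36 (SE 0.0412) for MT1E. Log2 fold changes of all genes against vehicle followed the GC content of their exons, with Spearman correlations across genes of 0.444 to 0.771 over the 7 treatments. The exons of MT2A, MT1E, MT1X and MT1F have a GC content of 54.2%, 58.7%, 53.7% and 57.1%, against a median of 48.7% for the genes tested. After each library was corrected for GC content and length, MT2A was at -0.27 with ketamine, 0.44 with (2R,6R)-HNK and -0.77 for the other enantiomer, and MT1E at -0.79, 0.24 and -2.15. The corrected values of MT1X for (2R,6R)-HNK and its enantiomer were 0.67 and -0.99, those of MT1F 0.39 and -1.39, and MT1E with E2 alone was at -0.67. The correction turned the sign for MT2A with E2 alone (-0.16), for MT1X with E2 alone (-0.15) and for MT1F with E2+(2R,6R)-HNK (0.03 to -0.33). For MT1L it turned the sign in 5 of the 7 treatments, namely with (2R,6R)-HNK (0.13 to -0.33), (2S,6S)-HNK (0.15 to -0.24), E2+ketamine (0.34 to -0.23), E2+(2R,6R)-HNK (0.23 to -0.20) and E2+(2S,6S)-HNK (0.05 to -0.25). The correction of MT1L rests on 186 annotated exon bases with a GC content of 62.4%, all shared with another transcript. Its corrected values are therefore uncertain.

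To ask what each drug changed when E2 was present, the conditions with E2 and a drug were compared with E2 alone by the quasi-likelihood test of edgeR, Benjamini-Hochberg adjusted over 16004 genes. A gene passed, and is said to have risen or fallen, at an adjusted p under 0.05. These comparisons share the E2 libraries. With 2 libraries against 2, an exact two-sided permutation test of a single gene cannot go below p = 0.333, so whether a gene passed depends on a spread pooled from all 8 conditions. Whether separate cultures gave the 2 libraries of a treatment is not stated, and the p-values measure the spread between libraries, which may be technical.

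With E2+ketamine against E2, MT2A rose by 0.79 (SE 0.0278) on the log2 scale, MT1E by 1.11 (SE 0.0402), MT1X by 0.91 (SE 0.0985) and MT1F by 1.02 (SE 0.117). MT1L also rose and MTF1 fell, so that 5 of the 9 members were higher and 1 lower, where 24.8% of all genes tested were higher and 25.5% lower. MT1E and MT1F also passed a log2 fold change of 1, the fold limit of the study, in a direction in which 0.587% of all genes did. For MT2A, MT1E, MT1X and MT1F both E2+ketamine libraries stood above both E2 libraries. Of the 5 tested fibroblast and mural markers, 3 rose and 0 fell in this comparison (median log2 fold change 0.11). Corrected for GC content and length, the rises of MT2A, MT1E, MT1X and MT1F were 0.63, 0.88, 0.76 and 0.80.

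With E2+(2S,6S)-HNK against E2, the same 4 genes fell: MT1E by 1.66 (SE 0.0466), MT1X by 1.13 (SE 0.113), MT2A by 0.90 (SE 0.0287) and MT1F by 0.80 (SE 0.132) on the log2 scale. With MT1L higher, 1 member of 9 rose and 4 fell, against 27.3% and 27.8% of all genes. A fall of at least 1 on the log2 scale was passed by 2 members, MT1E and MT1X, and by 1.63% of all genes. For these 4 genes the 2 libraries with the drug were below both E2 libraries. In the same comparison 0 of the 5 tested fibroblast and mural markers rose and 4 fell (median log2 fold change -0.42).

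The changes with E2+(2R,6R)-HNK against E2 were smaller and mixed in direction. MT2A rose by 0.20 (SE 0.0278) on the log2 scale and MT1X by 0.28 (SE 0.100), while MT1E fell by 0.22 (SE 0.0418). MT1F was at 0.27 and did not pass (95% interval 0.03 to 0.51). MT1L and MT3 also rose, so that 4 members of 9 were higher and 1 lower, against 25.1% and 25.4% of all genes. Only MT3 passed a rise of 1 among the members, as did 2.22% of all genes. The call of MT1X was lost without E2 replicate 1 (0.11), without E2+(2R,6R)-HNK replicate 1 (0.27) and without its replicate 2 (0.29). That of MT3 was lost after correction for GC content and length (1.01) and without the same libraries, at 0.72, 0.88 and 1.29.

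**Figure D3:**
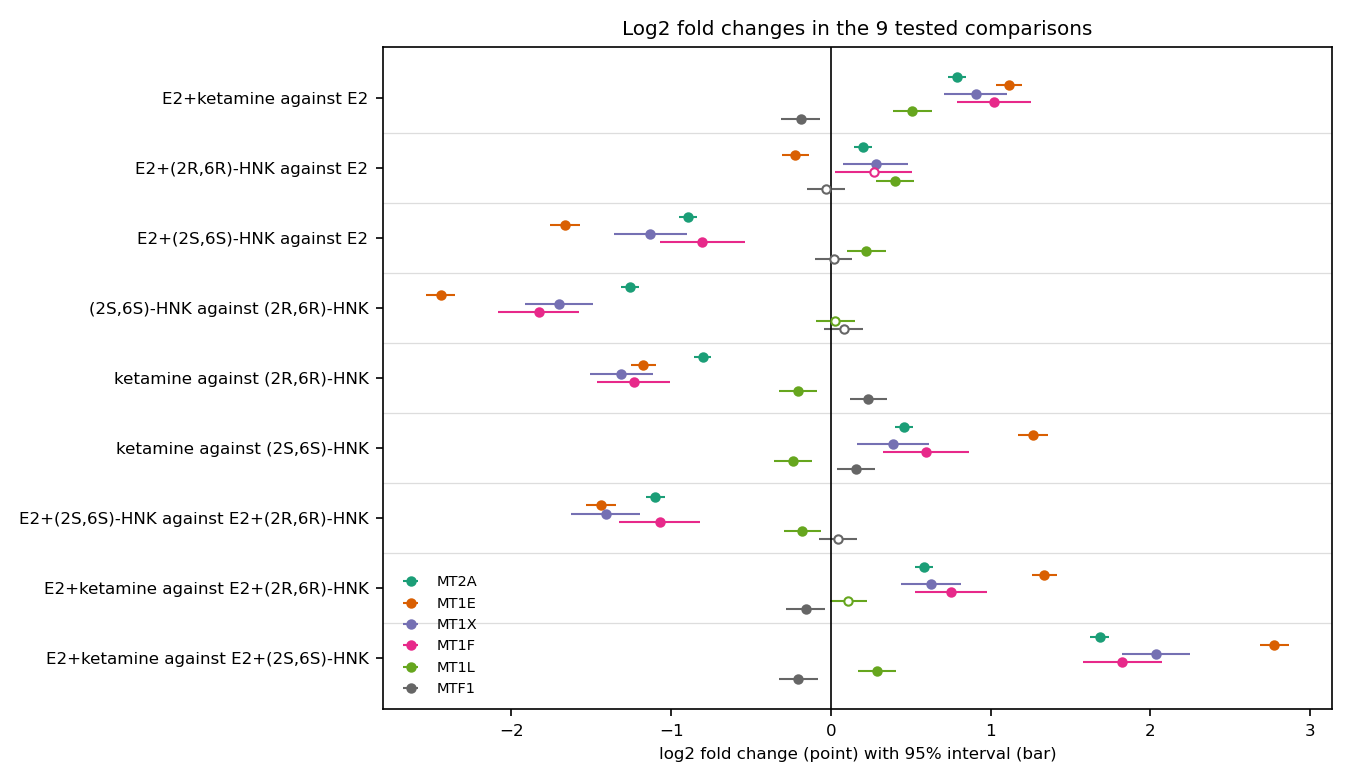
Log2 fold changes of MT2A, MT1E, MT1X, MT1F, MT1L and MTF1 (points, horizontal axis) with 95% intervals (bars) in the 9 comparisons that were tested; filled points passed an adjusted p of 0.05. MT1E spans -2.44 to 2.78, and MTF1 -0.20 to 0.24.

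The drugs were then compared with one another at the same dose and time, in 3 pairs without E2 and 3 with it. The 6 pairs share libraries, and p-values were adjusted over all genes within each pair. The largest separation without E2 was between the enantiomers. Differences between the enantiomers are given as (2S,6S)-HNK against (2R,6R)-HNK throughout. MT1E fell by 2.44 (SE 0.0453) on the log2 scale, MT1F by 1.83 (SE 0.127), MT1X by 1.70 (SE 0.106) and MT2A by 1.26 (SE 0.0285). No library of one enantiomer overlapped those of the other for these 4 genes. In the same comparison 0 of the 5 tested fibroblast and mural markers rose and 4 fell (median log2 fold change -0.26), and TUBB3 fell by 0.38 (SE 0.0379). Of the 9 members, 0 were higher and 4 lower, where 22.4% of all genes were higher and 21% lower. All 4 passed a fall of 1, as did 1.02% of all genes. For the other 5 members the difference did not pass, with a 95% interval of -0.09 to 0.15 for MT1L, -0.04 to 0.20 for MTF1, -1.47 to 0.36 for MT3, -2.32 to 0.40 for MT1A and -3.44 to -0.07 for MT1G. Over all genes, the fold changes of this pair were nearly unrelated to GC content (Spearman correlation -0.0366 across genes), and the corrected values were -2.39 for MT1E and -1.20 for MT2A.

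Ketamine also gave lower levels than (2R,6R)-HNK, and here too 0 of the 5 fibroblast and mural markers rose and 4 fell (median log2 fold change -0.23), while TUBB3 fell by 0.50 (SE 0.0372). MT1X fell by 1.31 (SE 0.0973) on the log2 scale, MT1F by 1.23 (SE 0.113), MT1E by 1.17 (SE 0.0396) and MT2A by 0.80 (SE 0.0276). With MT1L lower and MTF1 higher, 5 members of 9 were lower and 1 higher, against 22.6% and 22.8% of all genes. MT1E, MT1F and MT1X were 3 of the 38 genes in the whole table that fell by at least 1, which are 0.237% of the genes tested.

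Between ketamine and (2S,6S)-HNK the order was the opposite. MT1E was higher with ketamine by 1.27 (SE 0.0466) on the log2 scale, MT1F by 0.60 (SE 0.135), MT2A by 0.46 (SE 0.0284) and MT1X by 0.39 (SE 0.113). With MTF1 higher as well and MT1L lower, 5 members of 9 were higher and 1 lower, against 22% and 24.2% of all genes. MT1E alone passed a rise of 1 among the members, as did 1.1% of all genes. The call of MT1X was lost without ketamine replicate 1 (0.30) and without (2S,6S)-HNK replicate 2 (0.34).

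With E2 in both conditions, (2S,6S)-HNK again gave lower levels than (2R,6R)-HNK. In this pair 0 of the 5 tested fibroblast and mural markers rose and 5 fell (median log2 fold change -0.32). Of the 3 tested microglial markers, 0 rose and 2 fell. MT1E fell by 1.44 (SE 0.0465) on the log2 scale, MT1X by 1.41 (SE 0.109), MT2A fell by 1.098 (SE 0.0285) and MT1F fell by 1.07 (SE 0.126). With MT1G and MT1L, 6 members of 9 were lower and 0 higher, against 29.1% and 25% of all genes. MT1E, MT1X, MT2A, MT1F and MT1G were 5 of the 48 genes that fell by at least 1, or 0.3% of those tested. MT1G (-2.74, 95% interval -5.07 to -0.40) rests on 2 counts over both E2+(2S,6S)-HNK libraries. Its call was lost after correction for GC content and length (-2.65), without either E2+(2R,6R)-HNK library (-2.85 and -2.61) or without E2+(2S,6S)-HNK replicate 1 (-1.66). In this pair the fold changes of all genes followed GC content (Spearman correlation -0.673 across genes), and after correction MT1E was at -1.27, MT1X at -1.29, MT2A at -1.001 and MT1F at -0.89. The call of MT1L was also lost with the correction (-0.05). Then 4 members of 9 passed, and 4837 of all genes in place of 8647.

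With E2, ketamine gave higher levels than either enantiomer. With E2+ketamine against E2+(2R,6R)-HNK, 3 of the 5 tested fibroblast and mural markers also rose and 0 fell (median log2 fold change 0.21). The summed neuronal markers, mostly TUBB3, were at 86.1 and 89.3 CPM with E2+(2R,6R)-HNK and 141.3 and 141.4 CPM with E2+ketamine. Against E2+(2R,6R)-HNK, MT1E rose by 1.34 (SE 0.0402) on the log2 scale, MT1F by 0.75 (SE 0.112), MT1X by 0.63 (SE 0.0947) and MT2A by 0.58 (SE 0.0275). With MTF1 lower, 4 members of 9 were higher and 1 lower, against 25.3% and 26.7% of all genes, and MT1E alone passed a rise of 1, as did 1.27% of all genes. Ketamine without E2 had given lower levels than (2R,6R)-HNK, so the order of these drugs was the opposite with E2. Against E2+(2S,6S)-HNK the rises were 2.78 (SE 0.0449) for MT1E, 2.04 (SE 0.107) for MT1X, 1.83 (SE 0.123) for MT1F and 1.68 (SE 0.0286) for MT2A. MT1L was also higher and MTF1 lower, giving 5 members of 9 higher and 1 lower, against 31.7% and 35% of all genes. MT1E, MT1X, MT1F and MT2A passed a rise of 1, as did 2.64% of all genes.

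MTF1, which encodes the regulator, varied from 21.2 to 28.2 CPM over the 16 libraries. Its highest level was 1.33-fold its lowest, against 3.93-fold for MT1F and 1.52-fold for MT1L. It was measured at 27.9 and 28.2 CPM with vehicle, 23.5 and 25.2 CPM with E2, 22.9 and 21.2 CPM with (2R,6R)-HNK and 23.2 and 23.5 CPM with (2S,6S)-HNK. With ketamine it was at 26.5 and 25.6 CPM, and with E2+ketamine at 21.4 and 21.3 CPM. The vehicle libraries were highest, and the E2+ketamine libraries, in which MT2A and MT1E were highest, were at the low end with (2R,6R)-HNK. The vehicle and ketamine libraries stood above all others, while the libraries with E2 alone overlapped those with E2 and either enantiomer. Of the 9 tested comparisons MTF1 passed in 5, with log2 fold changes of -0.19 (SE 0.0608) for E2+ketamine against E2 and 0.24 (SE 0.0579) for ketamine against (2R,6R)-HNK. The others were 0.16 (SE 0.0586) for ketamine against (2S,6S)-HNK, -0.16 (SE 0.0599) for E2+ketamine against E2+(2R,6R)-HNK and -0.20 (SE 0.0598) against E2+(2S,6S)-HNK. With the correction for GC content and length none of the 5 passed, and the values were -0.07, 0.11, 0.08, -0.03 and -0.04 in that order. Leaving out E2 replicate 2 ended the call of E2+ketamine against E2 (-0.13), and leaving out ketamine replicate 1, (2S,6S)-HNK replicate 1 or (2S,6S)-HNK replicate 2 that of ketamine against (2S,6S)-HNK (0.13, 0.15 and 0.16). The call against E2+(2R,6R)-HNK was lost without either E2+ketamine library (-0.16 and -0.16) and without E2+(2R,6R)-HNK replicate 2 (-0.09).

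MT1L, annotated as a transcribed pseudogene, lies between MT2A and MT1E but did not follow them. Its level was 24.3 and 23.3 CPM with vehicle, 21.8 and 20.6 CPM with E2, 25.8 and 26.3 CPM with (2R,6R)-HNK and 27.2 and 25.9 CPM with (2S,6S)-HNK. It was 31.1 and 29.2 CPM with E2+ketamine, 26.6 and 29.4 CPM with E2+(2R,6R)-HNK and 24.9 and 24.5 CPM with E2+(2S,6S)-HNK. The E2 libraries were lowest, and the 3 conditions with E2 and a drug stood above them without overlap. Against E2, MT1L rose by 0.51 (SE 0.0602) on the log2 scale with E2+ketamine, by 0.40 (SE 0.0595) with E2+(2R,6R)-HNK and by 0.22 (SE 0.0602) with E2+(2S,6S)-HNK, where MT2A and MT1E fell. In the 6 pairs of drugs its changes were between -0.23 and 0.29, and 4 of them passed. After the correction for GC content and length, the rises against E2 were 0.37, 0.41 and 0.35, while none of the 4 differences between drugs passed (-0.02, -0.11, -0.05 and 0.02). These corrected values are uncertain, since they rest on exon bases that all overlap another transcript. Leaving out ketamine replicate 1 ended the call against (2R,6R)-HNK (-0.16). Leaving out E2+(2R,6R)-HNK replicate 2 ended that of E2+(2S,6S)-HNK against E2+(2R,6R)-HNK (-0.11) and added one for E2+ketamine against E2+(2R,6R)-HNK (0.18).

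MT1A, MT1G and MT3 were near the limit of detection, with 2 to 23 counts per library for MT1A, 0 to 15 for MT1G and 11 to 50 for MT3. MT3 is the isoform known for its abundance in neurons and astrocytes. Summed over both libraries, MT3 gave 33 counts with E2, 86 with E2+(2R,6R)-HNK, 66 with E2+ketamine and 50 with E2+(2S,6S)-HNK. Before TMM scaling, counting error alone gives 95% Poisson intervals of 0.188 to 0.383 CPM for E2 and 0.466 to 0.720 for E2+(2R,6R)-HNK. They treat every count as independent and would be too narrow if some pairs were counted more than once, which the excess of even numbers among low counts (65.8% of counts from 1 to 9) does not settle. MT3 rose by 1.102 (SE 0.468) on the log2 scale with E2+(2R,6R)-HNK against E2. It did not pass in the other 8 comparisons, although without E2 replicate 2 it did for E2+ketamine against E2 (1.54). MT1G had 28 counts with (2R,6R)-HNK but 7 counts with (2S,6S)-HNK, a difference of -1.75 (SE 0.839) that did not pass. With E2, MT1G had 15 counts for (2R,6R)-HNK but 2 counts for (2S,6S)-HNK. MT1A had 36 counts with (2R,6R)-HNK and between 10 and 26 in the other 7 conditions, and it passed in none of the 9 comparisons, though without ketamine replicate 2 it did for ketamine against (2R,6R)-HNK (-2.21). For all 3 genes, smaller differences were not detectable at this depth.

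The make-up of the metallothionein counts also shifted. MT2A held 72.9% of the counts of the 8 loci with vehicle, 78.4% with (2S,6S)-HNK and 74.3% with (2R,6R)-HNK, while MT1E held 18.3%, 8.45% and 18.2%. The ratio of MT2A to MT1E counts was 3.98 with vehicle, 4.09 with (2R,6R)-HNK and 4.13 with E2+ketamine. It was 9.28 with (2S,6S)-HNK and 8.84 with E2+(2S,6S)-HNK. The ratio was 5.18 with E2, 5.29 with ketamine and 6.95 with E2+(2R,6R)-HNK, where MT2A was above vehicle and MT1E below it, although with the correction for GC content and length MT2A was at 0.01 against vehicle. Where MT2A and MT1E were low, MT1L made up 10.4% of the counts with (2S,6S)-HNK and 11.6% with E2+(2S,6S)-HNK, against 5.79% with vehicle.

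Across the 16 libraries, log2 CPM of MT2A correlated with that of MT1X (Pearson r = 0.985), MT1F (0.971) and MT1E (0.955). The correlation was 0.393 with MT1L and -0.461 with MTF1. These are descriptions over libraries that share conditions, and the members were selected for moving in part of them. The 5 genes outside the members most like MT2A, of 10369 with a mean of at least 5 CPM, were SMAP2 (r = 0.955), ANKRD54 (0.936), ZNF777 (0.928), DDX28 (0.919) and MAPK8IP1 (0.917), over 16 libraries. With values corrected for GC content and length, SLC30A1 came first (r = 0.974) and SMAP2 second (0.945). Those most like MTF1 were WNK1 (0.953), LATS1 (0.952), OTUD7B (0.951), ATF7IP (0.944) and HERC1 (0.943), and the correction replaced each of these 5 by another gene.

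Few counts were assigned to other metallothionein loci. Of 12 such loci 8 were in the table, none passed the filter, 5 had no count in any library, and the highest count was 5 (MT1JP). Pairs from these loci that fit another metallothionein were not counted, so low expression was not told apart from loss of such pairs. To see whether the change extended beyond the cluster, 10 genes flanking it at 16q13 were examined, of which 9 were tested. Between (2S,6S)-HNK and (2R,6R)-HNK, 3 rose and 1 fell, against 22.4% and 21% of all genes, with a median log2 fold change of 0.07 against 0.01 for all genes. BBS2, the nearest tested neighbour on the MT3 side, was at 0.38 (SE 0.0699), and NUP93, beyond MT1X, at 0.07 (SE 0.0304). With E2 in both conditions 2 rose and 4 fell (25% and 29.1% of all genes), with BBS2 at 0.30 and NUP93 at -0.25. The largest changes of these neighbours over the 9 comparisons were a rise of GNAO1, a G protein subunit, by 1.87 (SE 0.329) with E2+(2R,6R)-HNK against E2 and a rise of NLRC5, an activator of MHC class I genes, by 1.30 (SE 0.106) with E2+ketamine against E2+(2S,6S)-HNK. The largest falls were those of GNAO1, by 1.48 (SE 0.318) with E2+ketamine against E2+(2R,6R)-HNK, and of BBS2, by 0.84 (SE 0.0686) against E2+(2S,6S)-HNK.

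**Figure D4:**
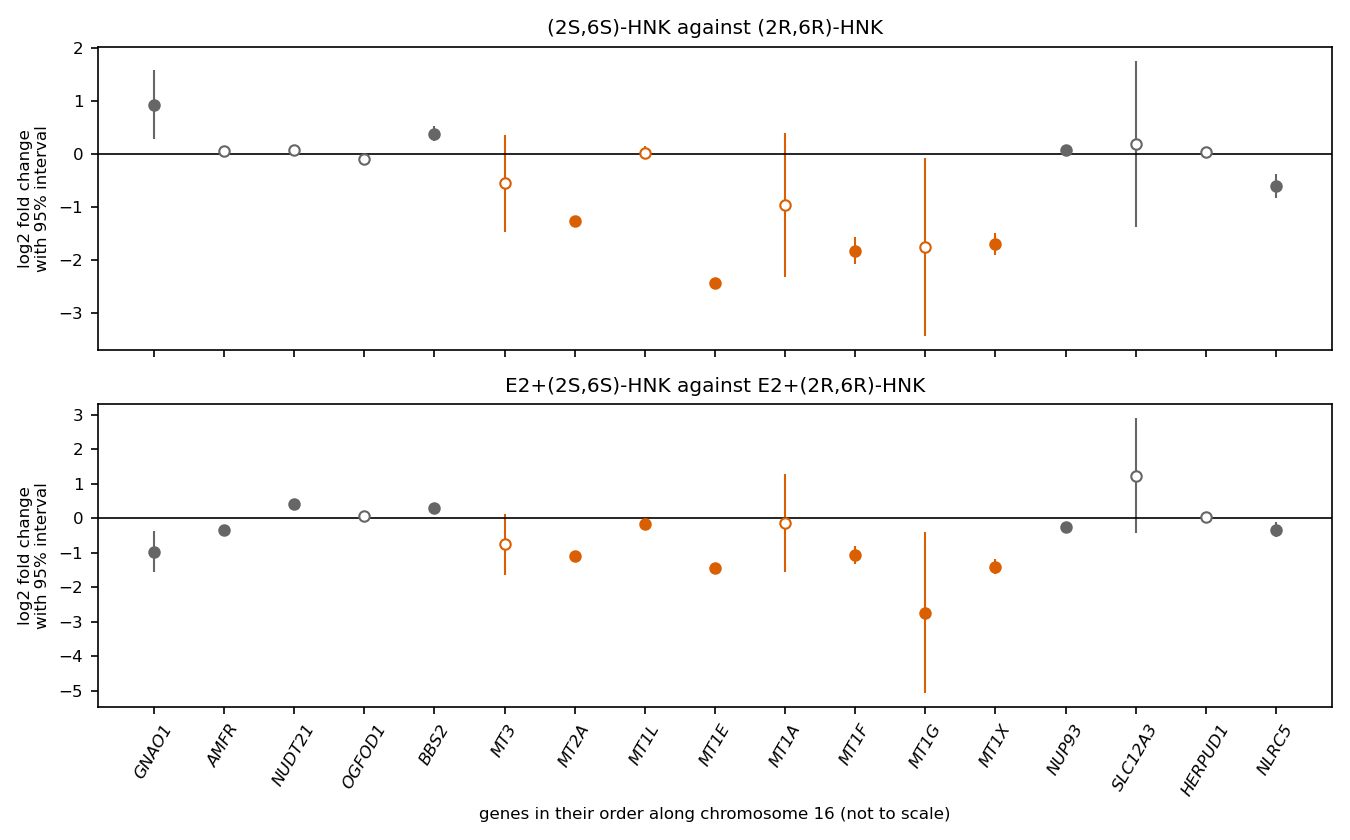
Log2 fold changes (vertical axis, points) with 95% intervals (bars) between (2S,6S)-HNK and (2R,6R)-HNK, without E2 (top) and with E2 in both conditions (bottom), for genes in their order along chromosome 16; metallothioneins are orange, flanking genes grey, and filled points passed an adjusted p of 0.05. MT2A (-1.26), MT1E (-2.44), MT1F (-1.83) and MT1X (-1.70) are low in the top panel, while BBS2 and NUP93 on either side are at 0.38 and 0.07.

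Zinc exporters of the SLC30 family, 8 of which were tested, include the MTF1 target SLC30A1. SLC30A1 was measured at 13.4 and 13.3 CPM with vehicle, 9.004 and 7.44 CPM with E2, 5.45 and 5.10 CPM with ketamine, 11.6 and 13.3 CPM with (2R,6R)-HNK and 2.57 and 2.27 CPM with (2S,6S)-HNK. With E2 it was at 12.7 and 12.9 CPM with ketamine, 6.34 and 6.90 CPM with (2R,6R)-HNK and 2.32 and 2.11 CPM with (2S,6S)-HNK. As for MT1E, the libraries with (2S,6S)-HNK were lowest and those with E2+ketamine and (2R,6R)-HNK high, but the vehicle libraries stood above both E2+ketamine libraries for SLC30A1. Between (2S,6S)-HNK and (2R,6R)-HNK, SLC30A1 fell by 2.36 (SE 0.115) on the log2 scale. It rose by 2.52 (SE 0.112) with E2+ketamine against E2+(2S,6S)-HNK. Its log2 CPM correlated with that of MT1E at r = 0.961 and with that of MTF1 at r = -0.0870 over the 16 libraries. SLC30A1 was included with its response known from earlier results of these data. SLC30A2, a vesicular zinc exporter, had 0 counts in both (2S,6S)-HNK libraries against 19 and 4 with ketamine and 9 and 4 with (2R,6R)-HNK, and is given as counts only, since these are few and uneven. Of the 8 exporters, 3 rose and 4 fell with E2+ketamine against E2+(2S,6S)-HNK, where 31.7% and 35% of all genes did.

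**Figure D5:**
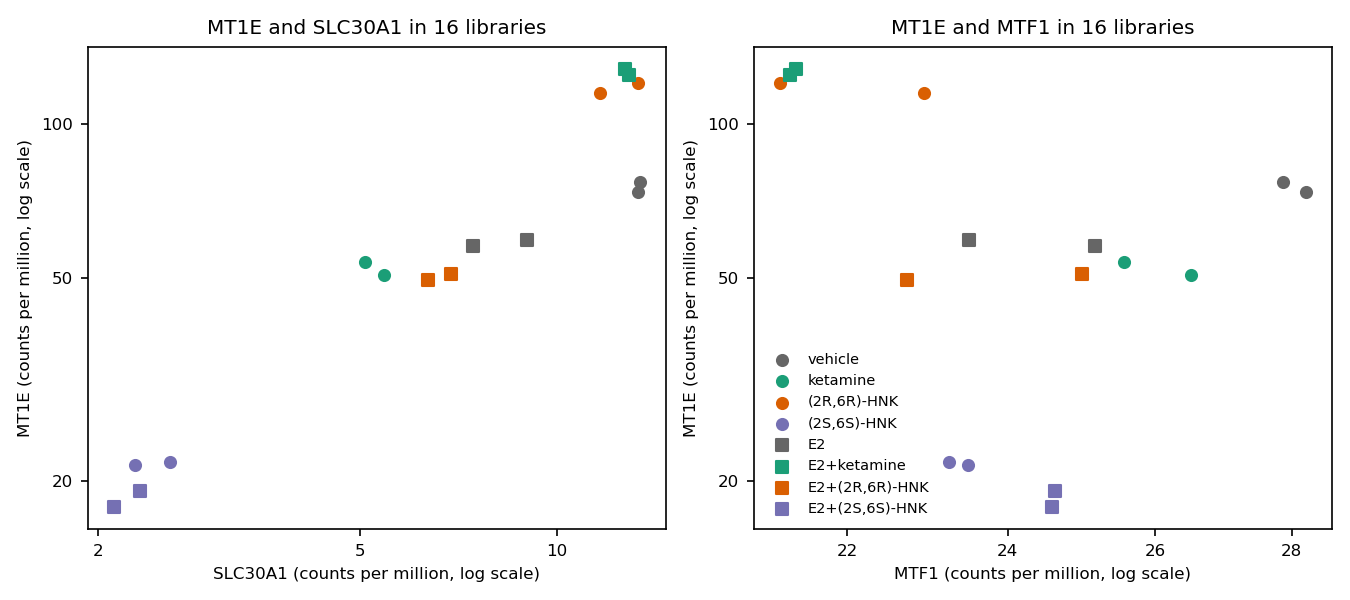
Level of MT1E (vertical axes) against SLC30A1 (left) and MTF1 (right), all in CPM on log scales, with 1 point per library; squares are libraries with E2 and colours mark the drug. MT1E and SLC30A1 are low together in the 4 libraries with (2S,6S)-HNK, whereas MTF1 lies between 21.2 and 28.2 throughout.

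Among the zinc importers of the SLC39 family, 12 of 14 were tested. SLC39A10, an importer that MTF1 is known to repress, fell by 1.58 (SE 0.0562) on the log2 scale with E2+ketamine against E2+(2S,6S)-HNK. It rose by 1.23 (SE 0.0533) with E2+(2S,6S)-HNK against E2+(2R,6R)-HNK and by 1.13 (SE 0.0566) between the enantiomers without E2. Between ketamine and (2S,6S)-HNK it did not pass (95% interval -0.11 to 0.10), although MT1E differed there. The next largest changes were a rise of SLC39A1 by 0.72 (SE 0.0286) and a fall of SLC39A6 by 0.77 (SE 0.0450), both with E2+ketamine against E2+(2S,6S)-HNK. Of the 12 importers, 3 rose and 5 fell with E2+ketamine against E2+(2S,6S)-HNK, where 31.7% and 35% of all genes did. Of 9 tested genes on a list of other MTF1 targets, 6 rose and 2 fell with E2+ketamine against E2 (24.8% and 25.5% of all genes) and 3 rose and 4 fell with E2+(2S,6S)-HNK against E2 (27.3% and 27.8%). The largest changes on that list were those of SLC30A1 and SLC39A10.

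Genes of the response to metals and oxidative stress, all 16 of which were tested, were compared in the same way. With E2+ketamine against E2, 8 rose and 3 fell (median log2 fold change 0.28), while with E2+(2R,6R)-HNK 1 rose and 13 fell (median -0.31) and with E2+(2S,6S)-HNK 3 rose and 12 fell (median -0.33). Of all genes, 24.8% rose and 25.5% fell in the first of these comparisons, 25.1% and 25.4% in the second, and 27.3% and 27.8% in the last. The largest rise was that of GDF15, a secreted stress factor, by 1.35 (SE 0.121) with E2+ketamine against E2. NQO1, a quinone reductase, rose by 1.28 (SE 0.0356) with E2+ketamine against E2+(2S,6S)-HNK and fell by 0.77 (SE 0.0361) with E2+(2S,6S)-HNK against E2. GCLM, a subunit of the enzyme that makes the glutathione precursor, fell by 0.84 (SE 0.0879) with E2+(2R,6R)-HNK against E2. The median over all genes lay between -0.02 and 0.01 in the 3 comparisons against E2. Between the enantiomers 2 rose and 11 fell (22.4% and 21% of all genes). With ketamine, 4 rose and 8 fell against (2R,6R)-HNK (22.8% and 22.6%), and 10 and 1 against (2S,6S)-HNK (22% and 24.2%). With E2 in both, 4 rose and 9 fell between the enantiomers (25% and 29.1%). For E2+ketamine, 14 rose and 0 fell against E2+(2R,6R)-HNK (25.3% and 26.7%), and 14 and 2 against E2+(2S,6S)-HNK (31.7% and 35%).

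Of 9 glucocorticoid targets tested, 5 rose and 1 fell between the enantiomers (22.4% and 21% of all genes) and 5 rose and 0 fell with ketamine against (2R,6R)-HNK (22.8% and 22.6%). With E2+ketamine against E2+(2S,6S)-HNK 4 rose and 3 fell (31.7% and 35%). CEBPD, a transcription factor, rose by 1.001 (SE 0.0762) with E2+ketamine against E2, and NFKBIA, an inhibitor of NF-kappaB, by 0.91 (SE 0.0668) with E2+ketamine against E2+(2S,6S)-HNK. In the same comparison KLF9 fell by 1.35 (SE 0.128), and the clock gene PER1 fell by 0.83 (SE 0.0503) with ketamine against (2S,6S)-HNK. Among 12 tested genes of copper handling, 4 rose and 5 fell with E2+ketamine against E2+(2S,6S)-HNK, again beside 31.7% and 35% of all genes. In that last comparison SCO2, a copper chaperone of cytochrome oxidase, rose by 1.05 (SE 0.321), while the copper pump ATP7A fell by 0.65 (SE 0.0955) and the importer SLC31A1 by 0.55 (SE 0.0429). ATP7A rose by 0.48 (SE 0.0937) with E2+(2S,6S)-HNK against E2.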

How the data were processed

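The authors aligned paired 100 bp reads to hg19 with TopHat2 (2.0.14) and Bowtie2 (2.2.6), as the submitters' notes state (the paper names earlier versions of both), and deposited counts of uniquely mapped read pairs per gene from featureCounts (1.4.6). Here edgeR (4.0.16, R 4.3.3) scaled the 16 libraries by TMM, kept 16004 genes with filterByExpr and fitted 1 mean per condition, with quasi-likelihood tests and Benjamini-Hochberg adjustment within each comparison. A gene passed at an adjusted p under 0.05. The 95% intervals use the moderated degrees of freedom. The correction for GC content and length fitted a loess curve to each library over genes with exon annotation. DESeq2 (1.42.0) served as an alternative. From each list, the 2 genes with the largest passing rise and the 2 with the largest passing fall over the 9 comparisons are named. Genes such as SLC39A10 in further comparisons were added after their values were seen. Of counts from 1 to 9, 65.8% were even, against 49.9% of high counts, so fits with halved counts were added, chosen after seeing the data. The members and lists were chosen with earlier results of these data known. One planned marker gene is not reported here.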

Additional observations from a re-analysis of the deposited data

Results flagged for a closer look

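The interaction of each drug with E2 is given for 6 members in which it passed an adjusted p under 0.05 for a drug. The share of all genes that passed was not counted, so the number of members is not a result. Each value is the log2 fold change of E2 and drug against E2 minus that of the drug against vehicle, from edgeR. The comparisons with vehicle served to choose MT2A, MT1E, MT1X and MT1F, and the other members were chosen with results known. Passing therefore served only to list members, and the values are a description. For ketamine the difference was 0.91 (SE 0.039) for MT2A, 1.65 (SE 0.057) for MT1E, 1.49 (SE 0.168) for MT1F, 1.3 (SE 0.143) for MT1X and 0.59 (SE 0.084) for MT1L. With all conditions corrected for GC content and length these were 0.90, 1.66, 1.51, 1.31 and 0.72. The corrected values of MT1L, here and below, are uncertain because its annotated exon bases all overlap another transcript.

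For (2R,6R)-HNK the difference was -0.48 (SE 0.039) for MT2A, -0.87 (SE 0.057) for MT1E, -0.5 (SE 0.165) for MT1F and -0.64 (SE 0.14) for MT1X, while it was 0.28 (SE 0.084) for MT1L and 0.31 (SE 0.083) for MTF1. With the correction the values were -0.27 for MT2A, -0.54 for MT1E, -0.20 for MT1F, -0.44 for MT1X, 0.74 for MT1L and 0.13 for MTF1. The value of MT1F was -0.40 without (2R,6R)-HNK replicate 2, and that of MT1L was 0.20 without E2+(2R,6R)-HNK replicate 2. For (2S,6S)-HNK the difference was -0.32 (SE 0.04) for MT2A and 0.28 (SE 0.084) for MTF1, and with the correction it was -0.07 and 0.11. The correction also moved MT1E from 0.14 to 0.58, MT1F from 0.26 to 0.69, MT1L from 0.07 to 0.59 and MT1X from -0.34 to -0.07 for this drug. For MT1X the value was -0.38 with upper-quartile scaling, -0.39 with RLE scaling and -0.51 without E2 replicate 1. For MT1E it was 0.17 without vehicle replicate 2 and 0.18 without E2+(2S,6S)-HNK replicate 2.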

How the results depend on the processing

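Of 1075 log2 fold changes of members in the 9 comparisons under the alternatives, 1019 kept their direction and side of the threshold, 49 no longer passed, 7 newly passed and 0 changed direction while called. For MT2A, MT1E and MT1F in the 8 comparisons other than E2+(2R,6R)-HNK against E2, this held in 336 of 336 fits. The number of all genes passing stayed within 1.5 times in 124 of 126 fits. The 2 exceptions were E2+(2S,6S)-HNK against E2+(2R,6R)-HNK, where 8647 genes passed and 4837 did with the correction for GC content and length, or 4818 with the correction and a replicate block. The number of members passing was within 1.5 times in 122 of 126 fits. The 4 exceptions were in E2+(2R,6R)-HNK against E2, where 5 passed and 3 did with the replicate block and the correction. With each library left out in turn this number ran from 3 to 5, where the lone library of a condition is assumed to vary like the other groups. It was 3 without E2 replicate 1, E2+(2R,6R)-HNK replicate 1 or E2+(2R,6R)-HNK replicate 2. The replicate block alone gave 4, as MT3 no longer passed, and it changed no other call of a member. Replicate differences of the 28 pairs of conditions correlated at -0.0258 to 0.0451 over all genes tested. No shared effect of the replicate number was seen, but one on some genes or conditions could be missed. Beyond the calls named with their results, MTF1 in E2+ketamine against E2+(2R,6R)-HNK no longer passed with DESeq2 (-0.13), RLE scaling (-0.13) or only the groups compared (-0.14). MT1G in E2+(2S,6S)-HNK against E2+(2R,6R)-HNK no longer passed without a filter (-2.72), and a filter of at least 10 counts in every library left MT1A and MT1G without a value. In E2+(2R,6R)-HNK against E2, MT3 no longer passed with DESeq2 (1.099), nor MT1X with the replicate block and the correction (0.23), while MT1F newly passed with upper-quartile scaling (0.29). MT3 newly passed in E2+ketamine against E2 without a filter or with the filter of at least 10 counts (1.04 in both), and MT1L in E2+ketamine against E2+(2R,6R)-HNK with RLE scaling (0.13). With counts halved, chosen after seeing the data, MT1A and MT1G had no value, so that 5 members in place of 6 passed in E2+(2S,6S)-HNK against E2+(2R,6R)-HNK, and no call changed among the other 7 members. Against vehicle, 42 of 63 values moved by more than the spread between libraries with the correction, and 38 of 63 with upper-quartile scaling. The causes were not tested.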
